A study of Mus musculus with 12 samples.

Results

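Nodal and Smad1 are a secreted ligand and an intracellular effector of the TGF-beta superfamily, and both had listed N6-methyladenosine (m6A) peaks in J1 mouse embryonic stem cells. All rows named Nodal or Smad1 in the authors' 4 deposited tables were taken, which gave 2 genes of the 6074 listed genes and 15 rows of 32586. Overlapping rows on the same strand were joined, which gave 5 loci of 10747, 2 in Nodal and 3 in Smad1. The genes were chosen because they had peaks in these cells and with earlier results of the same tables known, so every value below is a description and no test was made on them.

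The libraries came from J1 cells that carried a lentiviral shRNA against Mettl14, an shRNA against Mettl3 or a scramble shRNA. All 3 groups were grown with leukaemia inhibitory factor on irradiated mouse embryonic fibroblasts and were selected with puromycin as stable lines. Per the labels' protocols, poly(A) RNA was fragmented and pulled down with an antibody to m6A. There were 6 such IP libraries, 2 in each group. A further 6 libraries were made without antibody. They have no column of their own in the tables and were not analysed on their own here. The enrichments below are ratios over an Input of each IP library, so libraries without antibody may enter them as that Input. Each table compares 1 knockdown IP library with 1 scramble IP library. The tables form 2 sets, and within a set the Mettl14 and Mettl3 tables share the scramble library, so their changes are not independent. The series' design text speaks of 1 biological replicate each, so the spread between sets may be technical.

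m6A is placed on mRNA by a writer complex in which Mettl3 is the catalytic subunit and Mettl14 its partner in RNA binding. The mark lies mainly in the DRACH sequence context (R stands for a purine, D for a base other than C, H for a base other than G), is frequent near stop codons and in long internal exons, and in embryonic stem cells is linked to faster mRNA turnover. Nodal protein is cut by proprotein convertases, binds activin receptors with a co-receptor and activates Smad2 and Smad3, which sustains the primitive epiblast state and patterns the gastrula. Smad1 is phosphorylated by BMP receptors and enters the nucleus with Smad4. In mouse embryonic stem cells the BMP branch acts together with leukaemia inhibitory factor to hold back differentiation.

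The strongest m6A consensus, GGACT in DNA letters, occurred 4 times in the Nodal mRNA and 2 times in the Smad1 mRNA, and all of these lay inside the listed loci. The loci covered 71.6% of the 2095 nt Nodal mRNA and 44.1% of the 3099 nt Smad1 mRNA. The sequences below are those nearest to where the calls peaked, or the GGACT of the locus, read from the GENCODE M21 transcripts (mm10), 5′ to 3′ on the RNA strand with T for U. Capitals mark the 5-base motif, whose central base is the A that can be methylated.
Nodal exon 2, upstream GGACT: ccggacagaactGGACTttcacgtttgac
Nodal exon 2, downstream GGACT: caagttccaggtGGACTtcaacctgattg
Nodal exon 3, before the stop codon: catgctttatgtGGACAatggcagggtcc
Smad1 exon 2: tcccaccggaagGGACTacctcatgtcat
Smad1 exon 7, 3′ UTR, summit motif: ggattgagaaacTGACAagccttggttga
Smad1 exon 7, 3′ UTR, GGACT: tgactttcagcaGGACTtttgtgtatagt
The Nodal sequences are on the + strand at chr10:61422994-61423022, chr10:61423556-61423584 and chr10:61424558-61424586, in that order. Their A bases lie 840, 278 and 62 nt before the first base of the stop codon, all in coding sequence. The Smad1 sequences are on the − strand at chr8:79371924-79371952, chr8:79339493-79339521 and chr8:79339405-79339433. The first of these A bases lies in coding sequence, 245 nt after the first base of the start codon. The other two lie in the 3′ UTR, 144 and 232 nt after the first base of the stop codon. A motif match is a description and does not show that the base is methylated.

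Across the series, the 4 knockdown libraries listed 4367 to 5717 peaks over 3052 to 3386 kb, and the 2 scramble libraries listed 5438 and 7886 peaks over 4254 and 5212 kb. A listed peak held 4 to 2151 tags. Library depth was not known here, as the tables give no total of reads. The tables hold peaks and no expression values, so neither the knockdown of Mettl14 or Mettl3 nor a change in Nodal or Smad1 mRNA was measured here. As the RNA came from bulk cultures, fewer cells with the mRNA and less marked RNA per cell cannot be told apart. Of 12 markers of pluripotent cells, 3 (Sox2, Klf4 and Sall4) had a scramble peak in each set. Of 14 markers of feeder fibroblasts, 4 had one in set 1 (Col5a1, Pdgfra, Pdgfrb and Twist1) and 2 in set 2 (Pdgfrb and Twist1). The part of feeder RNA in the values below was not tested.

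The coding-sequence locus of Nodal (ENSMUSG00000037171, transcript ENSMUST00000049339, + strand) spans chr10:61422871-61423795 in mm10. Every call covered the whole of exon 2, 716 nt, so the exon's edges set the extent of the peak on the mRNA. Enrichment is the authors' ratio of IP to the library's own Input, listed for each called peak. Over which part of the peak it was taken is not stated. In the authors' deposited tables the unscaled enrichment was 5.33 and 4.40 in Mettl14 knockdown cells in set 1 and set 2. It was 6.21 and 6.01 in Mettl3 knockdown cells, against 5.47 and 8.78 in scramble cells. The 2 scramble libraries thus stood further apart than the 4 knockdown libraries, which all lay between 4.40 and 6.21. The 4 knockdown calls held 190 to 205 tags each, more than 83.4% to 89.0% of the peaks of their libraries, while their enrichment was above only 2.18% to 9.61% of those peaks. This was a broad peak with many tags and a low ratio over Input.

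The authors multiplied each knockdown enrichment by 1 constant per table, for Mettl14 0.906 in set 1 and 0.777 in set 2, for Mettl3 1.00 and 0.609. On that scale the coding-sequence peak of Nodal stood at 4.83 and 3.42 under Mettl14 knockdown and at 6.23 and 3.66 under Mettl3 knockdown, against the same 5.47 and 8.78 in scramble cells per the authors' deposited tables. Both Mettl14 values lay below both scramble values, as they did at 34.6% of the 2141 loci with 1 peak in each of these libraries, and 22.1% when the constants were left out. The Mettl3 values overlapped the scramble values, with and without the constants. The log2 changes, knockdown over scramble, were -0.18 and -1.36 for Mettl14 and 0.19 and -1.26 for Mettl3 per the authors' deposited tables. A negative change is a lower enrichment in the knockdown. So the peak was lower in 3 of 4 tables, a pattern held by 31.4% of the 2174 loci shared in all 4 tables. In set 2, where the constants are smallest, 84.8% of all shared peaks were lower under Mettl14 knockdown and 93% under Mettl3 knockdown; in set 1 these shares were 54.6% and 35.2%. The set 2 changes of this peak were -0.997 and -0.55 without the constants, and -0.77 and -0.35 when the median of all shared peaks was put at 0. In rank, 13.1% of the shared peaks of the set 2 Mettl14 table had a lower change than this one, against 42.6% in set 1. For Mettl3 these ranks were 29.97% in set 2 and 47.8% in set 1.

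The stop codon locus of Nodal spans chr10:61424451-61425266 in mm10, within and beside the last exon. In the authors' deposited tables the unscaled enrichment was 9.16 and 8.33 in Mettl14 knockdown cells and 9.28 and 13.42 in Mettl3 knockdown cells, against 11.23 and 9.39 in scramble cells. The highest and the lowest value both came from knockdown cells of set 2. The scaled values were 8.30 and 6.47 for Mettl14 and 9.31 and 8.17 for Mettl3 per the authors' deposited tables, and all 4 lay below both scramble values. For Mettl3, 20% of 2261 loci did so with the constants and 16.9% without them. The log2 changes were -0.44 and -0.54 for Mettl14 and -0.27 and -0.20 for Mettl3 per the authors' deposited tables. Of loci shared in all 4 tables, 25.3% were likewise lower in all 4. In rank, 28.5% and 54.0% of shared peaks had a lower change than this one under Mettl14 knockdown in set 1 and set 2. Under Mettl3 knockdown these ranks were 22.5% and 88.6%. Of loci shared in both sets, 49.2% were lower in both under Mettl14 knockdown, as both Nodal loci were, and 33.4% under Mettl3 knockdown, as the stop codon locus was. Without the constants, the Mettl3 values of this peak overlapped the scramble values and the set 2 change was 0.52, higher in the knockdown, while both Mettl14 changes remained below 0 at -0.29 and -0.17. Relative to the median shared peak, the changes were -0.37 and 0.06 for Mettl14 and -0.49 and 0.71 for Mettl3. Only the set 1 changes were negative on all 3 scales with both knockdowns. These calls held 129 to 165 tags at an FDR of 0% to 1.33%.

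**Figure D1:**
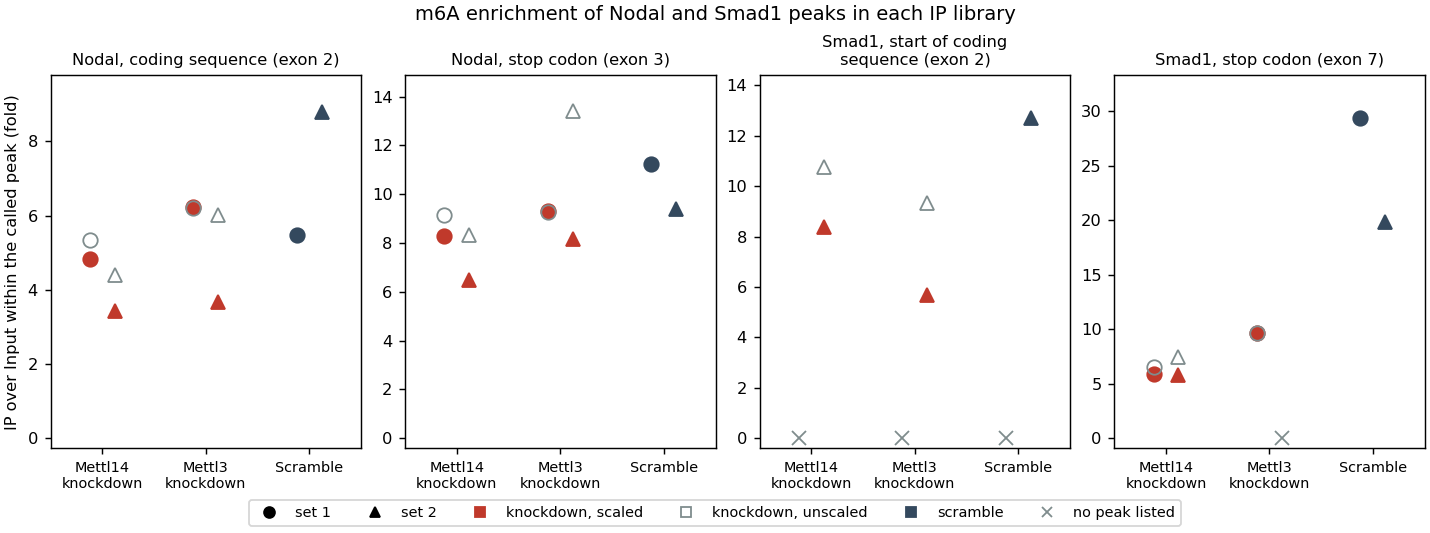
Enrichment of IP over Input (fold, linear axes from 0 with a range for each panel) at 4 loci in every IP library. Filled red symbols are scaled and open grey symbols unscaled knockdown values, dark symbols are scramble values, circles are set 1, triangles are set 2, and a cross marks a library with no listed peak. At the Smad1 stop codon every listed knockdown value lies under 10 and both scramble values lie near or above 20. At the Nodal coding sequence the scaled knockdown values of set 2, 3.42 and 3.66, lie well under the scramble value of 8.78, while those of set 1 lie near 5.47. The Smad1 exon 3 peak, listed in 1 library, is not drawn.

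How the mark was divided between the 2 Nodal loci does not depend on the scaling, since both loci of a library carry the same constant. The ratio of stop codon to coding-sequence enrichment was 1.72 and 1.89 in Mettl14 knockdown cells and 1.49 and 2.23 in Mettl3 knockdown cells, against 2.05 and 1.07 in scramble cells, from the authors' deposited tables. The stop codon peak had the higher enrichment in all 6 libraries. The 4 knockdown ratios lay within 1.49 to 2.23. The scramble ratios of 2.05 and 1.07 enclosed 3 of them, and the Mettl3 ratio of set 2 lay above both. In set 1 the ratio was lower in both knockdowns, and in set 2 it was higher in both. Both knockdowns of a set are compared with the same scramble ratio, so their directions are not independent. The ratio was not computed for other genes of the series.

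The spread between the 2 scramble libraries is the only measure of error among scramble values. On the log2 scale, set 2 over set 1, it was 0.68 at the Nodal coding sequence, -0.26 at the Nodal stop codon and -0.56 at the Smad1 stop codon. The median size of this difference was 0.38 over the 4104 loci with 1 peak in each scramble library. Of the 2 Nodal loci, the coding-sequence one therefore varied more between scramble libraries than 72.1% of these 4104 loci did.

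The summit column of the tables was read as an offset from the start of the peak, which its name does not state; all offsets fell within the peak, and every summit position here rests on that reading. So read, the calls on Nodal peaked close to each other in 3 of 4 knockdown libraries at each locus. In coding exon 2 the summit lay 5 and 0 nt from the A of the downstream GGACT under Mettl14 knockdown in set 1 and set 2, and 12 nt from it under Mettl3 knockdown in set 2. With Mettl3 knockdown in set 1 it lay 811 nt before the stop codon, 29 nt from the A of the upstream GGACT. Over all summits on transcripts, 16.2% to 17.8% lay within 30 nt of a GGACT in the 4 knockdown libraries. In exon 3, the summits lay 102 and 55 nt before the stop codon under Mettl14 knockdown and 58 and 57 nt before it under Mettl3 knockdown. Of these 4, 3 lay 4 to 7 nt from the A of the GGACA printed above, and the other lay 12 nt from an AGACC. The pair of GGACT motifs in the Nodal 3′ UTR, 616 and 630 nt after the stop codon, was covered by 2 of 6 calls, Mettl14 knockdown set 2 and scramble set 2, and held no summit. For the general motif DRACH, 80.5% to 83.5% of all summits lay within 30 nt. A window of the same length as the Nodal exon 2 locus held a GGACT in 68.5% and 67.9% of scramble peaks of set 1 and set 2, so the presence of the motif is common. Summits of scramble calls of shared peaks are not in the tables.

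**Figure D2:**
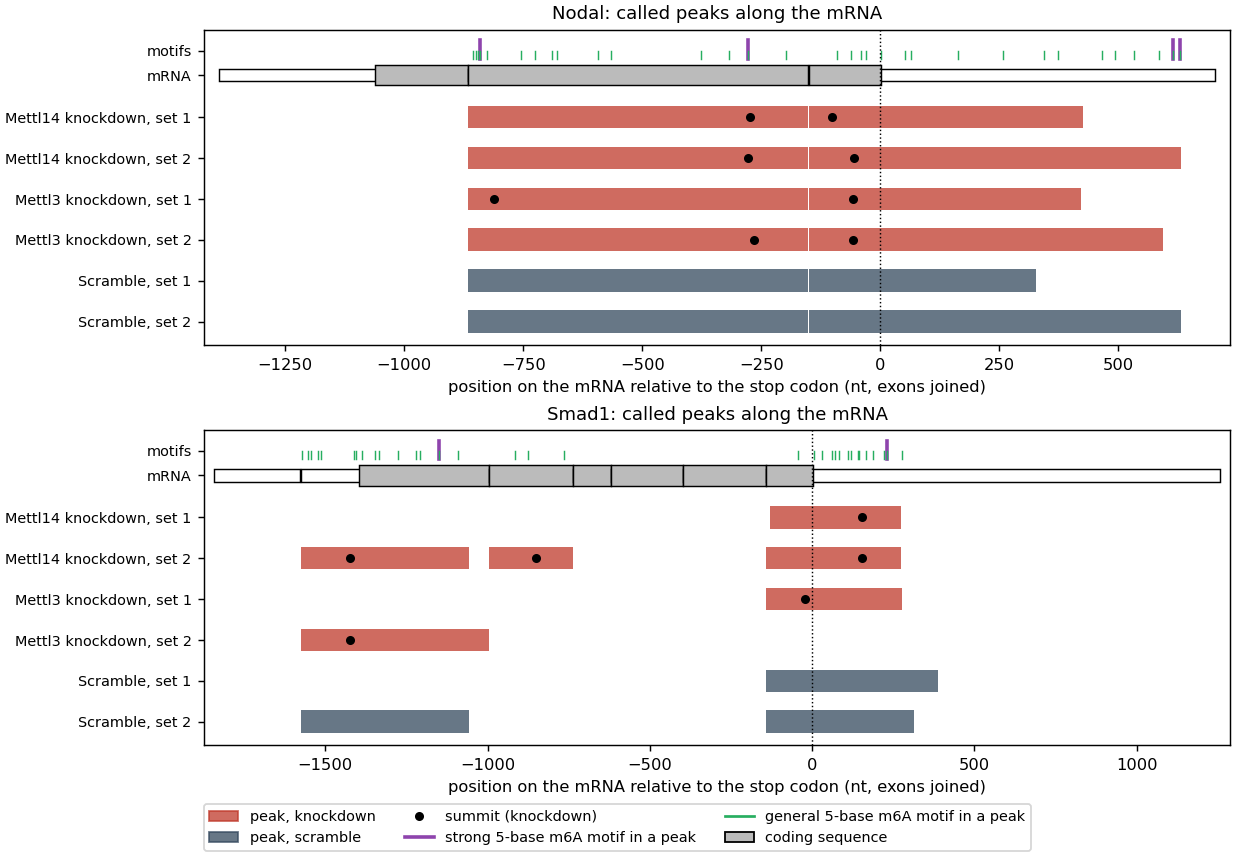
Called peaks along the Nodal (top) and Smad1 (bottom) mRNA, with exons joined and position in nt from the first base of the stop codon on the horizontal axis; each bar is the exonic part of 1 call and each dot the summit of a knockdown call. Purple ticks mark GGACT and green ticks DRACH motifs inside listed loci, and grey boxes the coding sequence. Nodal calls of all 6 libraries cover both loci, and the knockdown calls at the Smad1 stop codon end closer to the stop codon than the scramble calls do.

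Smad1 (ENSMUSG00000031681, transcript ENSMUST00000066091, − strand) had its main locus at the stop codon in exon 7, at chr8:79339264-79339882 in mm10. In the authors' deposited tables the unscaled enrichment was 6.56 and 7.46 in Mettl14 knockdown cells. It was 9.66 in Mettl3 knockdown cells of set 1 and no peak was listed in those of set 2, against 29.36 and 19.86 in scramble cells. The 3 listed knockdown values and the 2 scramble values did not overlap. The lowest scramble value exceeded the highest knockdown value by more than the whole range of the knockdown values. The share of all loci with such a gap was not counted. Scaled, the knockdown values were 5.94 and 5.80 for Mettl14 and 9.69 for Mettl3 per the authors' deposited tables. The log2 changes were -2.30 and -1.78 for Mettl14 and -1.60 for Mettl3 in set 1, which in the authors' deposited tables is an enrichment 4.94-fold, 3.43-fold and 3.03-fold lower in the knockdown. In each of these 3 tables the change was lower by more than 1 on the log2 scale, a size reached by 11.3% of shared peaks under Mettl14 knockdown in set 1, 26.8% in set 2 and 6.62% under Mettl3 knockdown in set 1. Both Mettl14 changes passed that size at 4.44% of the loci shared in both sets. Of shared peaks, 1.68%, 6.99% and 2.44% had a lower change than Smad1 in these 3 tables.

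The direction at the Smad1 stop codon was the same on each scale of enrichment. Without the constants the changes were -2.16 and -1.41 for Mettl14 and -1.60 for Mettl3, and relative to the median shared peak -2.24, -1.18 and -1.82. Both Mettl14 values lay below both scramble values with and without the constants, as they also did at the 2 Nodal loci. Of 2141 loci with 1 peak in each of these libraries, 34.6% did so with the constants and 22.1% without them. The peak lost under Mettl3 knockdown in set 2 was one of 41.9% of scramble peaks lost in that table.

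The tag counts at the Smad1 stop codon differed less than the enrichments did. The knockdown calls held 54 and 55 tags under Mettl14 knockdown and 47 under Mettl3 knockdown, and the scramble call of set 2 held 71 per the authors' deposited tables. In set 2, the Mettl14 knockdown call therefore had 77.5% of the scramble tags, a log2 ratio of -0.37, beside an enrichment change of -1.78. Per 100 nt of called peak, the density was 13.0 tags in both of these libraries. Over the 483 shared peaks of that table whose scramble tags are known, the median log2 tag ratio was -0.53 and the median enrichment change -0.63. Relative to that median, the Smad1 tag ratio was higher by 0.16 in the knockdown, opposite in direction to the enrichment. These 483 peaks have known scramble tags because Mettl3 knockdown lost them. The enrichment is a ratio over Input, and the tables list neither the Input tags nor the library depth. Over which part of the peak the ratio was taken is not stated either, while the tags are counted in the whole peak. The part of each of these in the lower enrichment was not tested.

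The Smad1 stop codon calls were also narrower and weaker in the knockdowns. They spanned 406 and 422 nt under Mettl14 knockdown and 444 nt under Mettl3 knockdown, against 557 and 547 nt in scramble cells. Over all peaks the knockdown calls were narrower too. In set 1 the median widths were 479 nt for Mettl14, 523 nt for Mettl3 and 538 nt for scramble. In set 2 they were 570, 539 and 651.5 nt. The knockdown calls ended 273 to 276 nt after the stop codon, against 387 and 315 nt in scramble cells. All of them thus covered the 3′ UTR GGACT at 232 nt. The deposited FDR was 6.97% and 9.62% under Mettl14 knockdown and 8.31% under Mettl3 knockdown, close to the highest FDR listed, 9.99%, against 1.06% for the scramble call of set 2 per the authors' deposited tables. The FDR of the scramble call of set 1 is not listed. At an FDR of at most 5%, no knockdown library would list the peak, and the share of all peaks above that limit was not counted. The summits under Mettl14 knockdown lay 153 and 154 nt after the stop codon, 9 and 10 nt from the A of the TGACA printed above and 79 and 78 nt from that of the GGACT. With Mettl3 knockdown in set 1 the summit lay 23 nt before the stop codon, and that of the scramble call of set 2 lay 58 nt before it. The nearest DRACH to these last summits was a TGACC 42 nt before the stop codon, 19 and 16 nt away. GGACT occurred in 60.6% and 59.3% of equally long windows of scramble peaks, so holding 1 copy is common.

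Further upstream, Smad1 had a locus over exon 2 at chr8:79371761-79372462 in mm10, which holds the start codon. It was listed in the 3 libraries of set 2 and in none of set 1. In the authors' deposited tables its unscaled enrichment was 10.77 under Mettl14 knockdown and 9.33 under Mettl3 knockdown, against 12.69 in scramble cells. The knockdown calls held 115 and 88 tags. With the constants the log2 changes were -0.60 and -1.16 per the authors' deposited tables. They were -0.24 and -0.44 without the constants, and -0.01 and -0.25 relative to the median shared peak. The summits lay 28 and 29 nt before the start codon, 13 and 14 nt from a GAACT, while the GGACT printed above lay 273 and 274 nt away. Within the Mettl14 knockdown library of set 2, enrichment at the stop codon was 0.693 of that at exon 2, against 1.57 in the scramble library of set 2, a comparison free of the scaling. The order of the 2 Smad1 loci was therefore opposite in these 2 libraries.

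The last Smad1 locus, over exon 3 at chr8:79356196-79356561, was a new peak under Mettl14 knockdown in set 2, like 31% of the peaks of that library. Its enrichment was 9.14 unscaled and 7.10 scaled, with 82 tags and an FDR of 2.48% per the authors' deposited tables. It was listed in 1 of 6 libraries, as 37.5% of all loci were, and it held no GGACT, which 40.4% and 39.3% of windows of that length in scramble peaks did hold. By comparison, the 2 Nodal loci were listed in all 6 libraries, as 20.3% of loci were, and the Smad1 stop codon in 5, as 8.20% were.

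**Figure D3:**
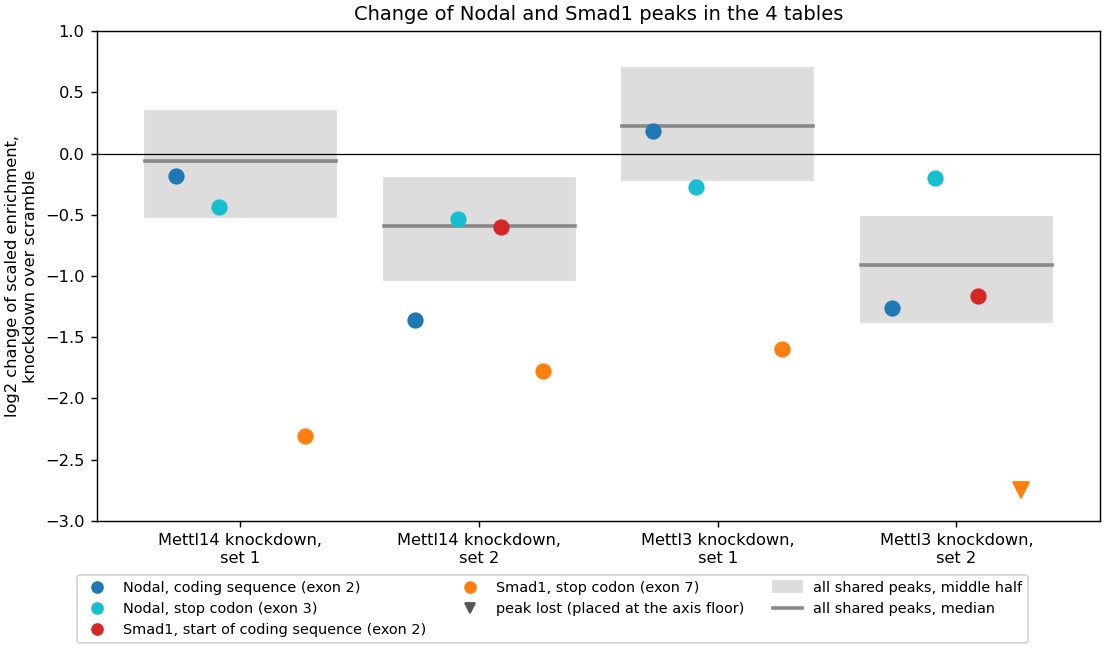
Log2 change of scaled enrichment, knockdown over scramble, at 4 loci in the 4 tables, with the median (grey line) and the lower to upper quartile (grey box) of all shared peaks of each table. A triangle at the bottom marks a peak lost in the knockdown, which has no change value. The Smad1 stop codon lies under the box in all 3 tables that share it, and the Nodal coding-sequence peak does so in set 2 under Mettl14 knockdown alone. Under Mettl3 knockdown the Nodal stop codon peak lies under the box in set 1 and above it in set 2.

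The 2 knockdowns can be set side by side within a set, with the caution that they share a scramble library. At the Smad1 stop codon in set 1, scaled enrichment was 5.94 under Mettl14 knockdown and 9.69 under Mettl3 knockdown per the authors' deposited tables. At the Nodal coding sequence it was 4.83 and 6.23 in set 1 and 3.42 and 3.66 in set 2. At the Nodal stop codon it was 8.30 and 9.31 in set 1 and 6.47 and 8.17 in set 2. The Mettl14 value was the lower one in each of these 5 pairs, with and without the constants. In set 1 the median change of all shared peaks had the same order, -0.06 for Mettl14 and 0.22 for Mettl3. In set 2 the medians had the opposite order, -0.59 and -0.91. The share of all loci with a lower Mettl14 value was not counted. The pair at Smad1 exon 2 in set 2 had the opposite order, 8.37 under Mettl14 knockdown and 5.68 under Mettl3 knockdown. The difference between knockdowns was not tested, since each has 1 library per set.

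Loci listed in the same libraries were ranked by the Euclidean distance of their log2 changes in the tables. Among the 3 nearest to the Nodal coding sequence, of 2071 loci over 4 tables, were loci of Chst12, a chondroitin sulfotransferase, at 0.11 and Rfxank, a regulator of MHC class II genes, at 0.20. Nearest to the Nodal stop codon were Foxo3, a forkhead transcription factor, at 0.20, Faf2 at 0.28 and Ftsj2, a ribosomal RNA methyltransferase, at 0.29. For the Smad1 stop codon, 163 loci had the same listing over 3 tables, and the nearest were Zfp651 at 0.31, Epha7, an ephrin receptor, at 0.32 and Man1a, a Golgi mannosidase, at 0.57. For Smad1 exon 2, 11 loci had the same listing, and Ftsjd2, an mRNA cap methyltransferase, was nearest at 0.21, with Hspa14 at 0.46 and Zbtb7b at 0.51.

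Nodal and Smad1 were read beside a list of 68 genes of the TGF-beta superfamily pathways, chosen by role. Of these, 42 had a listed peak in at least 1 table and 23 had a scramble peak in both sets. A gene counts as lower in a table when all its peaks there were lost or had a negative change, and as higher when all were new or had a positive change. In both sets, 12 genes were lower and 5 higher under Mettl14 knockdown, and 9 were lower and 3 higher under Mettl3 knockdown. For Mettl14, 32 pathway genes were listed in set 2, and all but Bmpr2 were also listed in set 1. For Mettl3, 29 were listed in set 2, and all but Bmp8a and Ppm1a were also listed in set 1. Set by set, 35% and 31.25% of listed pathway genes were higher under Mettl14 knockdown, against 27.4% and 19.7% of all listed genes. For Mettl3 these were 38.9% and 17.2%, against 34.7% and 16%. Lower were 57.5% and 59.4% for Mettl14, against 57.8% and 70.6%, and 44.4% and 72.4% for Mettl3, against 49.6% and 75.6%. Of all genes listed in both sets, 41.8% were lower and 7.55% higher under Mettl14 knockdown, and 33.5% were lower and 5.81% higher under Mettl3 knockdown. Without the constants the counts were 10 lower and 7 higher under Mettl14 knockdown and 9 lower and 8 higher under Mettl3 knockdown. Over all genes listed in both sets the shares without the constants were 33.4% lower and 13.1% higher for Mettl14, and 29.7% lower and 15.6% higher for Mettl3, so the counts of higher genes grew in the whole table as in the list. The median change of pathway peaks was -0.17 and -0.51 for Mettl14 and 0.10 and -0.76 for Mettl3, against -0.06, -0.59, 0.22 and -0.91 for all shared peaks of the same tables. These medians lay close to those of all peaks.

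Among ligands, Nodal was lower in both sets under Mettl14 knockdown, which no longer held relative to the median shared peak, and under Mettl3 knockdown it had peaks of both kinds in set 1. Gdf1, Gdf15, Tgfb1 and Bmp8b were lower in both sets with both knockdowns, on all 3 scales. Gdf15, a stress-induced ligand, had its scramble peak lost in all 4 tables, with scramble enrichments of 16.76 in set 1 and 24.56 in set 2 per the authors' deposited tables. Of all scramble peaks, 41.9% to 45.9% were lost in each comparison with a knockdown. The share of loci lost in every comparison was not counted, and both knockdowns of a set share its scramble call. The 5′ UTR peak of Tgfb1 was lost in 3 tables and had a change of -1.03 under Mettl14 knockdown in set 2 per the authors' deposited tables. The peaks of Gdf1 and Bmp8b are also assigned to a neighbouring gene, Lass1 and Oxct2b, so they cannot be given to the ligand alone. Bmp2, a BMP ligand upstream of Smad1, had no scramble peak and a new coding-sequence peak in each of the 4 knockdown libraries, with at most 28 tags per the authors' deposited tables. In each knockdown library 12.8% to 31% of all peaks were new, and the share of loci new in every one was not counted. Being new in all 4 rests on the lack of a call in the scramble libraries, which both knockdowns of a set share. Inhba, the activin A subunit, had new peaks in both sets under Mettl14 knockdown. Bmp4, the BMP ligand used with leukaemia inhibitory factor in serum-free culture of these cells, had log2 changes of 0.97 and -0.33 for Mettl14 and 0.46 and -0.21 for Mettl3 at the end of its coding sequence per the authors' deposited tables, so its direction differed between sets.

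Receptors went different ways. Acvr1b, the type I receptor through which Nodal signals, had log2 changes of 0.28 and 0.37 under Mettl14 knockdown and 0.55 and -0.05 under Mettl3 knockdown at its stop codon per the authors' deposited tables. Acvr1, a BMP type I receptor, had -0.17 and -0.08 under Mettl14 knockdown, which were not both negative on the other 2 scales, and 0.25 and -1.78 under Mettl3 knockdown per the authors' deposited tables. Bmpr1b, another BMP type I receptor, lost its stop codon peak in both sets under Mettl14 knockdown; its scramble calls held 17 and 13 tags per the authors' deposited tables. Furin, a convertase that cleaves the Nodal precursor, had log2 changes of -0.90 and -0.84 for Mettl14 and -0.37 and -1.42 for Mettl3 at its stop codon, with 201 to 260 tags per the authors' deposited tables. It was lower in both sets with both knockdowns on all 3 scales.

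Of the 6 receptor-activated and common Smads, Smad1 and Smad3 had peaks, and Smad2, Smad4, Smad5 and Smad9 had none in any table. Smad3, an effector of Nodal and TGF-beta, had peaks of both kinds in every table. Its stop codon peak had log2 changes of -0.77 and -0.67 under Mettl14 knockdown and -1.54 in set 1 under Mettl3 knockdown per the authors' deposited tables. Smad6, an inhibitor of the BMP branch, lost both scramble peaks of each set under both knockdowns, and under Mettl3 knockdown a new 5′ UTR peak was listed in set 1. The share of all genes that lost every scramble peak in this way was not counted. Smad7, an inhibitor of both branches, had 3 scramble peaks in each set. Its stop codon changes were -0.06 and -0.08 for Mettl14 and -0.02 and -0.64 for Mettl3, and its coding-sequence changes 0.20 and -0.48 for Mettl14 and 0.19 and -0.94 for Mettl3 per the authors' deposited tables. Bambi, a decoy receptor, had stop codon changes of -0.44 and -0.20 for Mettl14 and -0.64 and -1.37 for Mettl3 per the authors' deposited tables, and its call for Mettl14 did not hold on the other 2 scales. Nog, a secreted BMP antagonist, had no scramble peak and new coding-sequence peaks in all 4 knockdown libraries, with 21 to 43 tags per the authors' deposited tables. As for Bmp2, the share of loci new in all 4 libraries was not counted. Lefty1 and Lefty2, the Nodal antagonists, and Tdgf1, the Nodal co-receptor, had no listed peak.

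The intracellular regulators and targets completed the list. Skil, a repressor of Smad activity, was lower in both sets under Mettl14 knockdown on all 3 scales. Under Mettl3 knockdown its log2 changes were 0.18 and -0.63 per the authors' deposited tables. Ppm1a, a phosphatase of Smads, was higher in both under Mettl14 knockdown, but under Mettl3 knockdown in set 2 its log2 change was -1.07. Tgif1, a repressor of Smad2 targets, was higher in both under Mettl3 knockdown, which did not hold relative to the median shared peak. Under Mettl14 knockdown in set 1 the Tgif1 peak was lost. Msx2, a BMP target, was lower in both sets under Mettl3 knockdown, which did not hold relative to the median shared peak. Under Mettl14 knockdown Msx2 was higher in set 1 and lower in set 2. The Id genes, the best-known targets of Smad1, and Foxh1, the Smad2 partner in Nodal signalling, had no listed peak. A gene with no listed peak can be unmarked, weakly marked or little expressed, and the tables do not separate these.

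**Figure D4:**
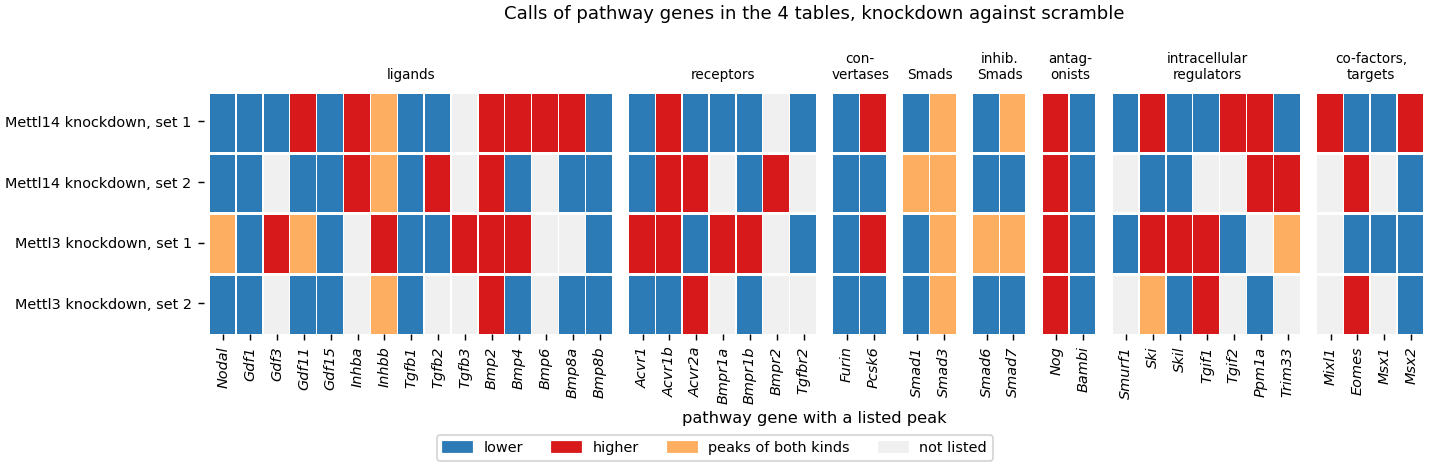
Calls of 41 of the pathway genes with a listed peak in the 4 tables (rows), grouped by role. Blue marks genes whose peaks were all lost or lower in the knockdown, red genes whose peaks were all new or higher, orange genes with peaks of both kinds and grey genes with no listed peak in that table. In Nodal and Smad1 the calls are blue except for 1 orange call each, Nodal under Mettl3 knockdown in set 1 and Smad1 under Mettl14 knockdown in set 2, where the exon 3 peak is new.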

How the data were processed

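The members and the gene lists were chosen with earlier results of these data known. The submitters' processing notes name mm10 as the build and list Picard 1.74, SAMtools 0.1.18, TopHat2 2.0.6, Bowtie 0.12.7, cutadapt 1.1 and CASAVA 1.8.2. The version of the peak caller and the basis of the scaling constants are not given in the sources.

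Per the file headers, MACS peak names are used, and each IP library was compared with its own Input on each strand, which makes a peak's width and presence depend on that library. The deposited tag count is the number of IP tags in the peak. The deposited enrichment is a fold ratio of IP over Input. The deposited FDR is a percent, at most 9.99%. A deposited signed fold score compares the scaled knockdown enrichment with the scramble enrichment of shared peaks, and was solved for the scramble value, which matched deposited scramble rows. It was turned into a log2 change, and lost peaks were left without one. Loci were joined at an overlap of 1 nt. Peaks were placed on GENCODE M21 transcripts, in which 6026 of 6097 gene IDs (98.8%) were found. Named genes were the members, pathway genes that both sets of a knockdown called alike, and the 3 genes nearest each locus. Bmp4, Bmp8a, Bmpr2, Smad3, Smad7 and the genes without peaks were named after their values were seen. A pair of genes that these rules name, and their results, are not reported here. Since each condition has 1 library per set, no model or test was used. Alternatives were no scaling constant, centring, an FDR of at most 5% or 1%, an overlap of 50% of the shorter peak, tags in place of enrichment, and leaving out each set. Scripts used Python 3.11.15, pandas 2.3.3 and numpy 2.4.6 and were tested on simulated tables.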

Additional observations from a re-analysis of the deposited data

How the results depend on the processing

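Values here are means of the log2 changes over the sets unless a set is named. The Nodal stop codon peak with Mettl3 knockdown had -0.24 as deposited, 0.12 without the constants and 0.11 with the median shared peak at 0, so its direction reversed. With Mettl14 knockdown it had -0.49, -0.23 and -0.16. The Nodal coding-sequence peak with Mettl14 knockdown had -0.77, -0.52 without the constants, -0.44 after centring, -0.18 at an FDR of at most 1% (set 1 only), and -1.36 without set 1 and -0.18 without set 2. With Mettl3 knockdown it had -0.54, -0.18 without the constants, -0.19 after centring, and -1.26 to 0.19 when 1 set was left out, with the reversal when set 2 was left out. The Smad1 stop codon peak with Mettl14 knockdown had -1.78 by enrichment and -0.37 by tags in set 2, the same direction, but -1.18 and 0.16 when each was set against its own median, a reversal. With Mettl3 knockdown it had -1.60, and -1.82 after centring. Smad1 exon 2 had -0.60 with Mettl14 knockdown, -0.24 without the constants and -0.0069 after centring, and with Mettl3 knockdown -1.16, -0.44 and -0.25. Knockdown libraries that list the Smad1 stop codon numbered 3, and 0 at an FDR of at most 5% or 1%; for exon 2 they numbered 2, and for exon 3 1, and 0 for both at 1%. Pathway genes higher in both sets numbered 5 with Mettl14 knockdown, 8 after centring and 2 at an FDR of at most 1%, and 3 with Mettl3 knockdown, 8 without the constants, 6 after centring and 0 at 1%. With 1 set left out, 19 to 23 were lower and 10 to 14 higher with Mettl14 knockdown, and 16 to 21 lower and 5 to 14 higher with Mettl3 knockdown, since a call then needs 1 set only. The other 60 values kept their direction, or for counts stayed within 1.5 times. Tags in place of enrichment gave no value at the other loci, where scramble tags are not listed, and the FDR limit could not be applied to the scramble copy of shared peaks. No paired analysis was possible because no source used here ties the replicate numbers of the labels to the tables and no model was fitted; the changes are themselves differences within a set, since each table pairs a knockdown library with the scramble library of its set. Tag counts of 47 to 71 limit the Smad1 stop codon values.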
